A study of Mus musculus with 8 samples.

Results

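The genes described here are 9 genes of the contractile apparatus and cell surface of smooth muscle (Acta2, Tagln, Cnn1, Myl9, Tpm1, Tpm2, Des, Mylk and Mcam) and Mb, which encodes myoglobin. They are 10 of the 12393 genes that had a probe set annotated to a single symbol, and 20 of the 22626 probe sets tested belonged to them. The genes were chosen by name, with sXBP1 to GFP differences of these same arrays already known. Their differences between the groups are therefore given as a description. Where a threshold of the fit over all probe sets is named for them, it is no independent test. RNA was measured on 8 Affymetrix arrays, 4 from mouse adipocytes infected with adenovirus carrying sXBP1, the spliced form of the transcription factor XBP1, and 4 from adipocytes infected with adenovirus carrying GFP. All cells were adipocytes differentiated in culture from a Swiss mouse line, named F442A in some label fields and 3T3L1 in another, with no gene deleted in either group. Virus was added at day 6 to 8 of differentiation, and cells were harvested 4 to 6 days after that. The labels do not say whether replicates were separate cultures, so the spread between them may be technical.

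Smooth muscle shortens when myosin pulls on filaments of smooth muscle actin. A kinase phosphorylates the regulatory light chain of myosin to start contraction, while tropomyosin and calponin lie along the actin filament and desmin ties the filaments to the rest of the cell. Fibroblasts and preadipocytes switch on part of this gene set as they become myofibroblasts under transforming growth factor beta (TGF-beta), through serum response factor (SRF), which binds a DNA element called the CArG box. Myoglobin is the heme protein that binds oxygen in heart and skeletal muscle, and Mcam is a cell adhesion molecule of vascular mural and endothelial cells.

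Promoters of 9 of the 10 genes, at 11 starts, were found in RefSeq (GRCm38.p6), each covering 250 bases before and 50 bases after a start. Motifs were searched on both strands. The exact CArG box was found in the Myl9 promoter alone, at 1 of 11 starts, against 1.63% of all 32851 starts in the table. With 1 base of its A and T core changed, it was found in Acta2 and Myl9, against 8.50% of all starts; this relaxed search was added after the sequences were seen. The MCAT element CATTCC, bound by TEAD factors, was found in Acta2, Tpm1 and Mylk, against 14.7% of starts. The core ACGT, part of sites bound by XBP1 and other bZIP factors, was found in Cnn1, Mylk and Mcam, against 30.9% of starts, and CCACG in Cnn1, against 32.8%. An E-box, CANNTG, was found at 10 of 11 starts, against 72.3%. TATAA was found in Acta2, against 24.9%, and it began at base 11 after the annotated start, not before it. Some of these motifs can overlap, and a match describes letters and shows no binding. The promoters of 4 genes that were lower in sXBP1 cells on their brightest probe set are shown so that these motifs can be seen. Capitals mark CArG boxes, exact or with 1 changed core base, MCAT elements and ACGT.
Acta2, chr19:34255324-34255623, minus strand: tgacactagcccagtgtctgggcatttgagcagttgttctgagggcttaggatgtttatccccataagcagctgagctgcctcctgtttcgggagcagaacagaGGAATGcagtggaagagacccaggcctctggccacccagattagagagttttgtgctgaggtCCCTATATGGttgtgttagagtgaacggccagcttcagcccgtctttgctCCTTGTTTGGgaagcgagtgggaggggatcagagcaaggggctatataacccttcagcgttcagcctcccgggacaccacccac
Myl9, chr2:156775214-156775513, plus strand: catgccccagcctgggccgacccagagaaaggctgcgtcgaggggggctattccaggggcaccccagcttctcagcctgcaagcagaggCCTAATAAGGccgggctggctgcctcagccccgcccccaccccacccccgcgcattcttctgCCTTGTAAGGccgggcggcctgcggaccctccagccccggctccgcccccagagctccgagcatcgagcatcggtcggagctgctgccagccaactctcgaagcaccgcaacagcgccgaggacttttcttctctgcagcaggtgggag
Tpm1, chr9:67049164-67049463, minus strand: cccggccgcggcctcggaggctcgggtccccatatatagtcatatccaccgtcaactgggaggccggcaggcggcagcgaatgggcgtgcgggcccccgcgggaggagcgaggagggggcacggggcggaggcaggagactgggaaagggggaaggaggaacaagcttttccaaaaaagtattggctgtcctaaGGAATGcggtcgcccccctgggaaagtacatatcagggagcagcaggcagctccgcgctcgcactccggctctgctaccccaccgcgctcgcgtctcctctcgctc
Mcam, chr9:44134408-44134707, plus strand: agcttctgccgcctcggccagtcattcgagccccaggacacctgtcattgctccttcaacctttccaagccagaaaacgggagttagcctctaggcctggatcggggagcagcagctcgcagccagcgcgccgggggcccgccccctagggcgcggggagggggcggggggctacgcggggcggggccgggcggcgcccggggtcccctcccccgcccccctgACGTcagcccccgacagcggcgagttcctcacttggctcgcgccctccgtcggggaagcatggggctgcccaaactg
In Acta2 the CArG-like elements began 84 and 34 bases before the annotated start, and in Myl9 the exact box began 161 bases and the altered one 99 bases before it. The ACGT of Mcam began 27 bases before its start.

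Of the 10 genes, 5 were lower in sXBP1 than in GFP cells past an adjusted p of 0.05 in the limma fit over all probe sets, and 0 were higher, each gene taken by its brightest probe set. Over all 12393 genes, 14.4% were lower and 12.9% higher past that threshold, and since the genes were chosen on this contrast nothing is read from their count. Among their 20 probe sets, 6 were lower and 0 higher, against 13.0% lower and 11.5% higher of all probe sets. The 5 genes were Acta2, Myl9, Tpm1, Mcam and Mb. The median log2 difference of the 10 genes was -0.37, against -0.01 over all genes. Here and below, log2 differences are sXBP1 minus GFP on the log2(signal + 16) scale after quantile normalization, with the standard error of the limma fit, and signals are the linear MAS5 values as deposited. In RNA from whole cultures, fewer cells of a type and less RNA per cell cannot be told apart.

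Detection limited what could be seen. The authors' deposited table marks each probe set on each array as present or absent, and the brightest probe set was present on all 4 arrays of at least 1 group for 8 of the 10 genes. For Tagln and Cnn1 it was present on none. These are 2 defining transcripts of smooth muscle, and Myh11, smooth muscle myosin heavy chain, was present on 1 of 4 GFP arrays and on 0 of 4 sXBP1 arrays. Tagln and Cnn1 had 1 probe set each, so their absent calls cannot separate an unexpressed gene from a probe set that failed. The gene names are used here for a set of contractile genes and not for a cell type. By brightest probe set, Acta2 was detected on all 8 arrays, Tagln and Cnn1 on none and Myh11 on 1.

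Acta2, the actin of smooth muscle and myofibroblasts, had signals of 639.8, 613.8, 728.2 and 763.2 in sXBP1 cells, against 1511.5, 1679.5, 1329.7 and 1535.8 in GFP cells. All sXBP1 arrays lay well below all GFP arrays, and the probe set was present on all 8. The means were 686 ± 70.9 in sXBP1 and 1514.1 ± 144 in GFP cells (SD, n = 4 each), a log2 difference of -1.06 ± 0.07. Its suffix, s_at, is used by Affymetrix for sets whose probes can match transcripts of more than 1 gene, and which genes these are was not analysed here. The second Acta2 probe set was present on no array, with signals of 2.5 to 9.5 in sXBP1 and 2.0 to 12.6 in GFP cells and a log2 difference of 0.00 ± 0.18. The other actins measured did not pass the test (limma adjusted p over all probe sets). Actb, a cytoplasmic actin, differed by 0.02 ± 0.04 (adjusted p = 0.767), Acta1 of skeletal muscle by -0.08 ± 0.12 (adjusted p = 0.726), Actc1 of heart by 0.10 ± 0.17 (adjusted p = 0.756) and Actg2 of enteric smooth muscle by 0.11 ± 0.15 (adjusted p = 0.671). Actc1 was present on no array and Actg2 on 1, and Actb was near the top of the signal range at 13915.2 in sXBP1 and 13355.4 in GFP cells. After median centring Actb passed the test with a difference of 0.20 (adjusted p = 0.0377).

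Myl9 encodes the regulatory light chain of smooth muscle myosin. Its single probe set had signals of 45.3, 30.2, 27.5 and 57.7 in sXBP1 cells, against 126.0, 139.2, 131.2 and 158.1 in GFP cells. It was present on all 4 GFP arrays and on none of the sXBP1 arrays, and the groups did not overlap. The log2 difference was -1.38 ± 0.17. That is a fitted fold of 2.61 on this scale, and since Myl9 was detected on no sXBP1 array its level there is not well measured. Mylk is the kinase that phosphorylates this light chain, and its brightest probe set had 771.4, 799.5, 875.0 and 762.5 in sXBP1 cells, against 892.3, 1038.7, 772.3 and 924.7 in GFP cells. The groups overlapped, and the log2 difference was -0.09 ± 0.09. The other Mylk probe sets differed by -0.20 ± 0.14 and 0.20 ± 0.16, so the 3 gave no common direction, and the dimmest of them was present on 1 array in all.

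**Figure D1:**
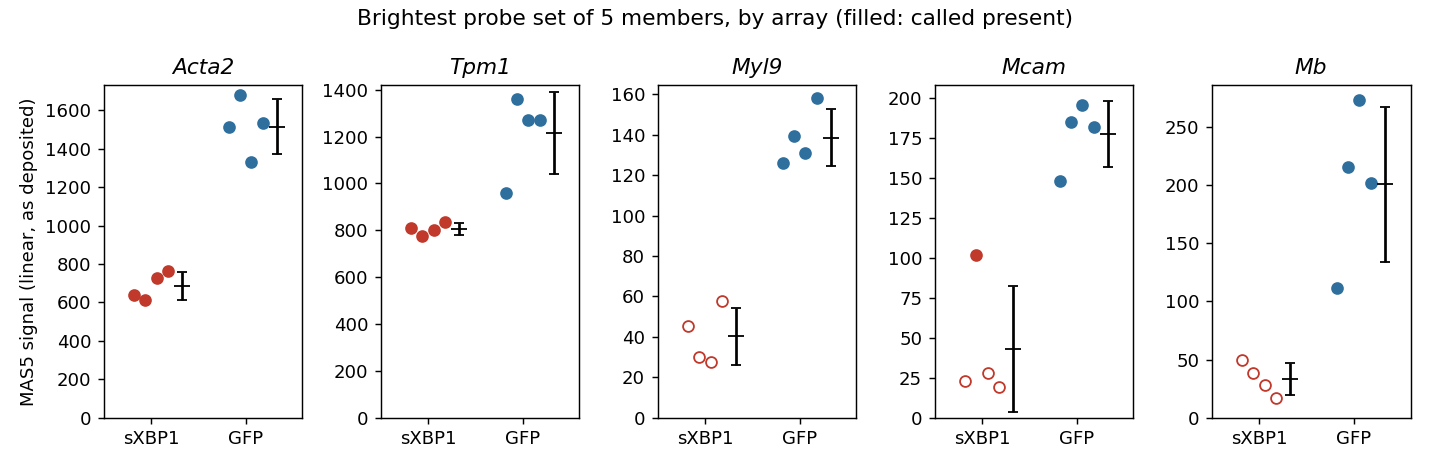
Linear MAS5 signal of the brightest probe set of Acta2, Tpm1, Myl9, Mcam and Mb on each sXBP1 (red) and GFP (blue) array, with the mean and SD (n = 4) in black; filled points were called present by the authors' software. Every sXBP1 array lies below every GFP array, and Myl9 and Mb are present on no sXBP1 array.

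Tropomyosins lie along actin filaments and steady them. The brightest Tpm1 probe set had 811.2, 775.0, 799.1 and 835.7 in sXBP1 cells, against 959.0, 1358.3, 1271.0 and 1269.5 in GFP cells. Every sXBP1 array was lower than every GFP array, and GFP replicate 1 was the lowest of its group. The log2 difference was -0.51 ± 0.08. A further Tpm1 probe set gave -0.54 ± 0.12, with signals of 413.7 to 563.9 in sXBP1 and 614.7 to 979.6 in GFP cells, and the dim one gave 0.00 ± 0.20. Tpm2 had 1414.0, 1514.9, 1526.8 and 1600.5 in sXBP1 cells, against 1359.0, 1348.8, 1452.1 and 1405.1 in GFP cells on its brightest probe set. These ranges overlapped as deposited but not after normalization, and the log2 difference was 0.16 ± 0.06, short of the threshold. After median centring that difference was 0.26 ± 0.07 and passed the threshold. The other 3 Tpm2 probe sets gave differences of -0.20 to 0.13, all with overlapping groups, and all 4 were present on every array.

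Des, desmin, had signals of 528.3, 440.8, 366.3 and 508.9 in sXBP1 cells, against 553.3, 683.6, 532.6 and 557.0 in GFP cells. Every deposited sXBP1 signal was below every GFP signal, but the normalized values overlapped, with a log2 difference of -0.24 ± 0.09. Without sXBP1 replicate 1, the highest of its group, the difference was -0.32 ± 0.08 and Des became a 6th gene past the threshold. Its second probe set was present on 2 GFP arrays only and gave -0.19 ± 0.24. Tagln, transgelin, an actin-bundling protein, had 2.8, 5.7, 2.0 and 17.8 in sXBP1 cells, against 2.6, 5.0, 3.1 and 5.4 in GFP cells. Cnn1, calponin, which restrains myosin on the thin filament, had 3.1, 3.4, 2.0 and 3.6 in sXBP1 cells, against 1.4, 2.6, 2.4 and 1.1 in GFP cells. For Tagln and Cnn1, absent on all 8 arrays, no change can be read from these values.

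Mcam had signals of 23.1, 101.8, 27.7 and 19.1 in sXBP1 cells, against 147.9, 185.1, 195.6 and 181.9 in GFP cells. The groups did not overlap, but sXBP1 replicate 2 stood apart from the rest of its group and was the only sXBP1 array on which Mcam was present. The log2 difference was -1.80 ± 0.34, the widest error among the 20 probe sets. Without that array it was -2.21.

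Mb showed the largest difference of the 10 genes. Its brighter probe set had 49.5, 38.3, 28.2 and 16.8 in sXBP1 cells, against 111.9, 215.4, 273.5 and 202.0 in GFP cells. It was present on all 4 GFP arrays and on no sXBP1 array. The log2 difference was -2.03 ± 0.28, a fitted fold of 4.08 against sXBP1 signals that were not detected. The other Mb probe set had 25.3, 17.9, 25.4 and 17.3 in sXBP1 cells, against 20.5, 4.4, 5.2 and 6.0 in GFP cells, a log2 difference of 0.63 ± 0.21. It had dim signals and overlapping groups, it is not in the authors' comparison table, and so it had no detection call. The lower level of Mb therefore rests on 1 of 2 probe sets. With the mean of both, the log2 difference was -0.70.

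**Figure D2:**
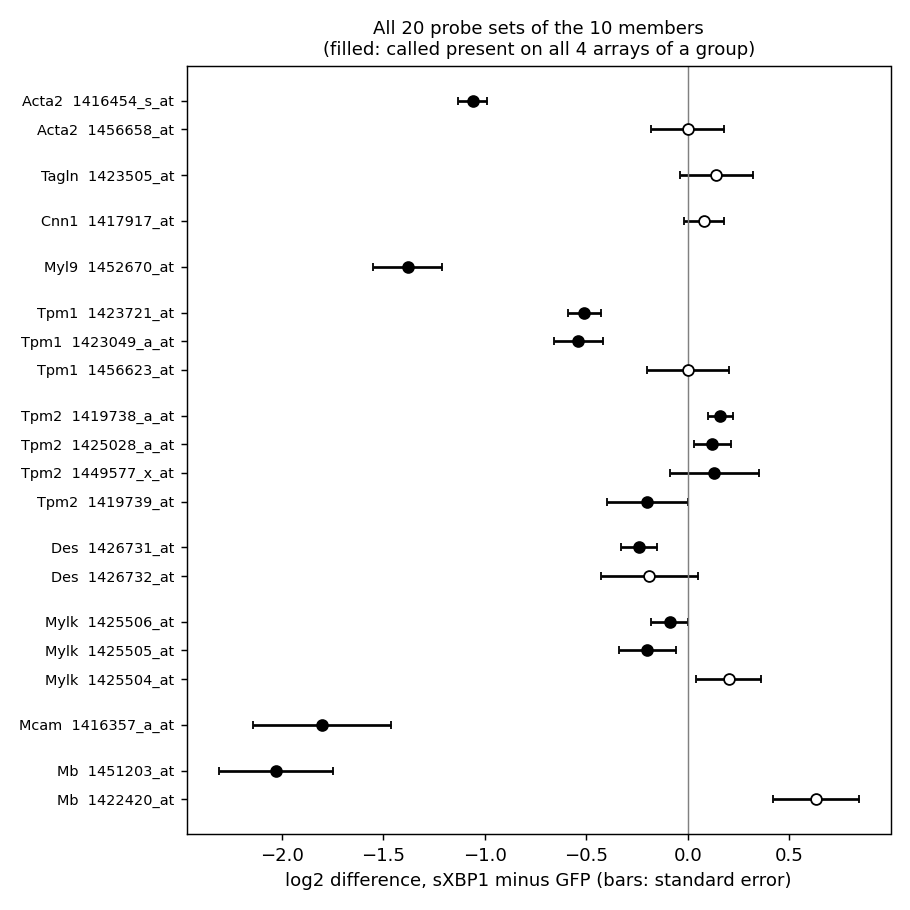
Log2 difference, sXBP1 minus GFP, of all 20 probe sets of the 10 genes, with its standard error; filled points were called present on all 4 arrays of at least 1 group. The 2 probe sets of Mb differ in direction. The open points of Acta2 and Tpm1 lie at 0.00. That of Acta2 was present on no array and cannot show disagreement, and that of Tpm1 was dim, present on 1 sXBP1 and 3 GFP arrays.

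Array by array, the genes that were lower did not share 1 order among the sXBP1 replicates. Relative to the GFP mean, Mb lay at -1.54, -1.84, -2.06 and -2.67 on sXBP1 arrays 1 to 4, and Myl9 at -1.20, -1.64, -1.65 and -1.04. Mcam was least reduced on sXBP1 array 2 (-0.57) and Acta2 on sXBP1 array 3 (-0.90). Over the 10 genes, the median lay between -0.45 and -0.28 on sXBP1 arrays and between -0.04 and 0.05 on GFP arrays.

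**Figure D3:**
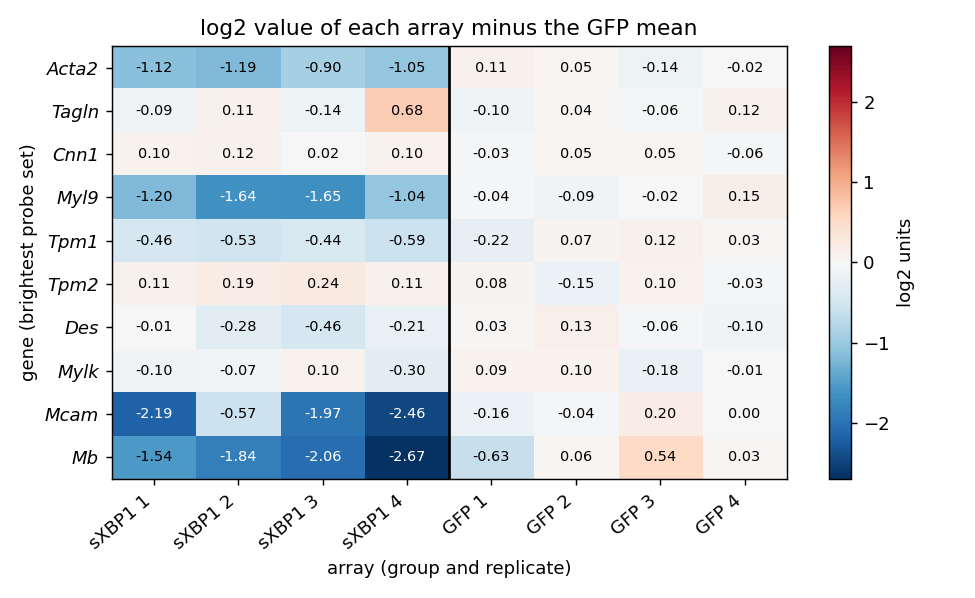
Normalized log2 value of the brightest probe set of each gene on each array, minus that gene's GFP mean; blue is below and red above it. Acta2, Myl9, Tpm1, Mcam and Mb are below 0 on every sXBP1 array, whereas Tpm2 lies between 0.11 and 0.24 on them.

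Profiles like that of Acta2 were sought among 6908 other genes whose brighter group was above the median, by the root mean square difference of log2 values from the GFP mean over the 8 arrays. The closest were Notch1, a receptor of cell-cell signalling, at 0.091, Rad51d, a DNA repair gene, at 0.10, Hoxa4, a homeobox gene, at 0.16, Tgm2, a protein cross-linking enzyme, at 0.17, and Glul, glutamine synthetase, at 0.17. Among the other contractile genes described here the closest to Acta2 was Myl9 at 0.33, followed by Tpm1 at 0.43. The genes closest to Mb were farther from it, from 0.40 for Ogn, a matrix proteoglycan, to 0.48 for Cavin2, a caveolar protein, with Ubd, Acaa1b and Id4 between them. Mcam lay at 0.55 from Mb.

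Other genes of the contractile and actin filament system were listed by role, 37 in all, of which 34 were measured. Of these, 10 were lower and 3 higher in sXBP1 cells, and 21 did not pass the test (limma adjusted p under 0.05 over all probe sets), with a median of -0.08 against -0.01 over all genes. Those shares, 29.4% lower and 8.82% higher, compare with 14.4% and 12.9% over all genes. Detection differed too, which limits the comparison. On all 4 sXBP1 arrays 27 of the 34 were present, and 27 on all 4 GFP arrays. Of all 12393 genes, 7638 were present on all 4 arrays of at least 1 group. Csrp2, a LIM protein of smooth muscle, fell by 0.77 ± 0.09 (adjusted p = 1.2e-04), with means of 190 in sXBP1 and 366 in GFP cells. Cnn3, a calponin of non-muscle cells, fell by 0.33 ± 0.04 (adjusted p = 2.1e-04) and Myl12b, a non-muscle regulatory light chain, by 0.32 ± 0.04 (adjusted p = 2.5e-04), Myl12b on 1 of its 2 probe sets. Csrp1, a LIM protein related to Csrp2, rose by 0.50 ± 0.09 (adjusted p = 0.00309), with means of 657 in sXBP1 and 488 in GFP cells. The other genes that fell, Cald1, Ppp1cb, Flna, Vcl, Zyx, Myh9 and Palld, and the others that rose, Tln1 and Pdlim7, changed by less than Csrp2 and Csrp1. Of these, Myh9 was called on 1 of its 4 probe sets, Ppp1cb on 2 of 4, and Vcl, Zyx, Tln1 and Pdlim7 each on 1 of 2. Myh11 differed by -0.68 ± 0.31 (adjusted p = 0.156) at means of 19.7 in sXBP1 and 37.5 in GFP cells, and passed without sXBP1 replicate 1 (-0.93, adjusted p = 0.0431). The count of genes that fell was 6 with deposited values, without a trend or without GFP replicate 3, and 5 after median centring, and the count that rose was 1 with deposited values and 6 after median centring. With the mean of all probe sets, 7 of the 10 and 3 of the 3 were called again.

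For Mb, 16 genes of other globins, heme synthesis, heme breakdown and oxygen response were measured, of which 5 were lower, 3 higher and 8 did not pass the test, with a median of -0.12. Those shares, 31.2% lower and 18.8% higher, stand beside 14.4% and 12.9% over all genes. Detection limits this comparison too. Of the 16, 12 were present on all 4 sXBP1 arrays and 12 on all 4 GFP arrays. Over all 12393 genes, 7638 were present on all 4 arrays of at least 1 group. Enzymes of heme synthesis split: Alas1, which makes the first precursor, fell by 0.72 ± 0.09 (adjusted p = 2.3e-04) on 1 of 2 probe sets, whereas Alad rose by 0.72 ± 0.11 (adjusted p = 7.8e-04) and Cpox by 1.0 ± 0.11 (adjusted p = 9.9e-05). Means of Cpox were 573 in sXBP1 and 303 in GFP cells. The count of genes that fell was 3 without GFP replicate 1 or after median centring and 2 without a trend. With the mean of all probe sets, 4 of the 5 lower and 3 of the 3 higher were called again.

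**Figure D4:**
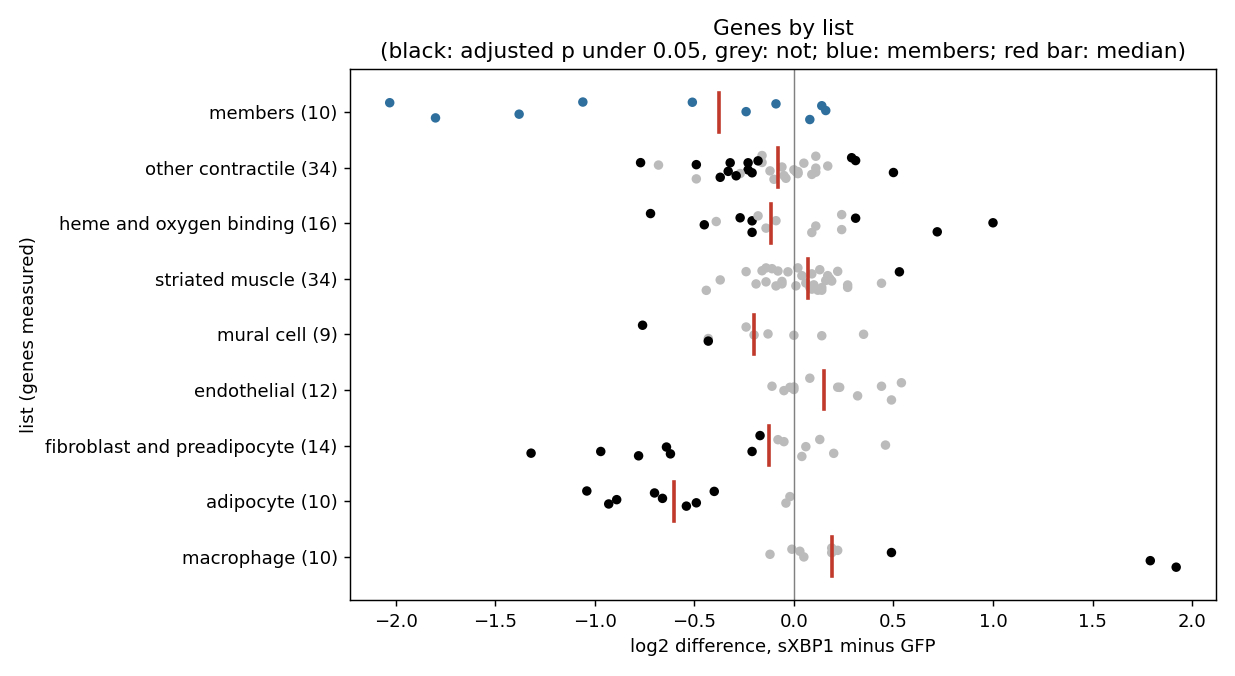
Log2 difference, sXBP1 minus GFP, of each measured gene by list, with the number measured in brackets; black points passed an adjusted p of 0.05, grey ones did not, blue ones are the 10 genes described here, and the red bar is the median. The adipocyte markers have a median of -0.60 and the striated muscle markers one of 0.07.

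Lists of adipocyte markers and of markers named for other cell types were compared as well, and their part in the results above was not tested. All cells came from a cultured line differentiated to adipocytes. A change in a marker therefore does not show that cells of the type it is named for were present. Adipocyte markers were present on all 8 arrays for 10 of 10 genes, as the label of the cells says, and 8 of them were lower in sXBP1 cells. That is 80.0%, against 14.4% lower over all genes. The smallest p were those of Slc2a4, the insulin-responsive glucose transporter, which fell by 1.04 ± 0.14 (adjusted p = 3.2e-04), Cidec, a lipid droplet protein, which fell by 0.93 ± 0.13 (adjusted p = 5.2e-04), and the hormone gene Adipoq, which fell by 0.49 ± 0.08 (adjusted p = 0.00125). The summed signal of this list was 53960 to 64920 in sXBP1 and 67996 to 74434 in GFP cells. Of 14 fibroblast and preadipocyte markers, 7 were lower and 0 higher, with sums of 70374 to 74604 in sXBP1 and 77416 to 86655 in GFP cells. Among the 7, the matrix genes Dpt, Lum and Postn fell by 1.32 ± 0.07, 0.97 ± 0.10 and 0.62 ± 0.06 (adjusted p = 1.3e-06, 7.4e-05 and 6.2e-05). With the mean of all probe sets, Pdgfra, Fbln1 and Fbln2 passed as higher, at 0.21, 0.28 and 0.13 (limma adjusted p = 0.0151, 0.04 and 0.0442). On that mean the 7 were called again, and Col1a1 and Col3a1 also passed as lower, at -0.14 and -0.17 (limma adjusted p = 0.0284 and 0.0324). These further genes were looked up after the values were seen. Of 9 mural cell markers, 2 were lower, which is 22.2% against 14.4% over all genes. Pdgfrb, a growth factor receptor, fell by 0.76 ± 0.07 (adjusted p = 5.6e-05) on 1 of 2 probe sets, and Angpt1, a vascular ligand, by 0.43 ± 0.11 (adjusted p = 0.0145). The sums were 1106 to 1336 in sXBP1 and 1900 to 2164 in GFP cells, and these 2 genes made up most of them. Means of Pdgfrb were 692 in sXBP1 and 1236.2 in GFP cells, and those of Angpt1 402 and 580. Of the 9 markers, 6 were present on no array or not listed, among them Rgs5 (-0.43 ± 0.24, adjusted p = 0.245).

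Striated muscle markers gave 0 lower and 1 higher of 34 (0.0% and 2.94%, against 14.4% and 12.9% over all genes). Their sums were 848 to 1131 in sXBP1 and 931 to 1116 in GFP cells. Casq1, a calcium store protein, was the gene that rose, by 0.53 ± 0.16 (adjusted p = 0.0362), and it did not pass in 7 of the alternatives run. Of the 34, 24 were present on no array or not listed, among them Ckm, the muscle creatine kinase, and Myod1, the myogenic regulator, which were looked up after the values were seen. Atp2a1 and Actn2 differed by 0.44 ± 0.19 and 0.27 ± 0.15 (adjusted p = 0.126 and 0.261). Of 12 endothelial markers, 0 passed in limma (0.0% in each direction, against 14.4% lower and 12.9% higher over all genes). Among them 7 were present on no array or not listed, and the sums of the 12 were 567 to 744 in sXBP1 and 498 to 606 in GFP cells. The smallest p among them were those of Tek, Flt1 and Emcn, with differences of 0.54 ± 0.21, 0.32 ± 0.13 and 0.49 ± 0.27 (adjusted p = 0.0862, 0.116 and 0.235). With the mean of all its probe sets, Flt1 passed at 0.39, and Tek passed at 0.71 after median centring and at 0.67 without sXBP1 replicate 1. Of 10 macrophage markers, 3 (30.0%, against 12.9% over all genes) were higher and 0 lower. Those 3 were Cd68, Lyz2 and Csf1r, by 1.79 ± 0.14, 1.92 ± 0.28 and 0.49 ± 0.14 (adjusted p = 1.3e-05, 6.8e-04 and 0.0239). The sums were 1199 to 2273 in sXBP1 and 564 to 640 in GFP cells, with 5 markers present on no array or not listed. Csf1r passed on 2 of its 3 probe sets and did not pass in 7 of the alternatives run. Adgre1, another marker of this list, was present on all 8 arrays and was looked up after the values were seen. It did not pass, at -0.12 ± 0.16 (limma adjusted p = 0.667). Ptprc, the common leukocyte antigen, was present on no array, and was looked up after the values were seen. RNA integrity was gauged on the control probe sets of Gapdh, whose 3′ signal over 5′ signal was 0.775 to 0.802 on sXBP1 and 0.810 to 0.820 on GFP arrays (exact two-sided permutation test, p = 0.0286, as low as 4 against 4 arrays allow), and its part was not tested either. The same ratio for Actb was 1.33 to 1.44 on sXBP1 and 1.40 to 1.44 on GFP arrays, which overlapped (exact two-sided permutation test, p = 0.143).

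The authors' deposited table gives the ratio of group means as a fold, with a minus sign where sXBP1 is lower. By brightest probe set, the fold was -6.05 for Mb, -4.14 for Mcam, -3.45 for Myl9, -2.21 for Acta2 and -1.51 for Tpm1. For Des it was -1.26, for Mylk -1.13 and for Tpm2 1.09. Tagln and Cnn1, absent on all 8 arrays, had folds of 1.76 and 1.61. That table listed 19 of the 20 probe sets.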

How the data were processed

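Linear signal intensity per probe set was deposited by the authors for 8 arrays, and the submitters' processing notes name MAS5 as the software; no source used here states its version or scaling target. The authors' deposited comparison table also holds a detection call for every array, a signed fold and a score, used as they stand. Median signal was 117.3 to 139.6 on sXBP1 and 135.0 to 153.9 on GFP arrays; the number of arrays limits the precision. After leaving out 64 control probe sets, 22626 were tested. Signals were taken as log2(signal + 16), quantile normalized and fitted with limma (version 3.58.1, R 4.3.3; lmFit, eBayes with a trend, two-sided, Benjamini-Hochberg adjustment over all 22626, threshold 0.05). The fit was tested on simulated data. The log2 scale with 16 added understates changes of dim genes.

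Symbols came from the platform annotation: 20380 probe sets had 1 symbol, 691 several and 1555 none, and 0 needed updating against RefSeq. List genes under older names were matched through RefSeq synonyms. Each gene was read from its brightest single-symbol probe set by mean over all arrays. The genes described and the 8 lists of other genes were chosen with earlier results of these data known; 1 further list is not reported here. Named from each list were the 3 genes with the smallest p, the smallest p in each called direction, and relatives of Acta2 fixed by name, plus the 5 genes closest to Acta2 and to Mb; other names are said to be later picks or are those of all genes called in a list. Same-numbered samples deviated together from their group means weakly at most over 12571 probe sets (r = -0.057 to 0.123, against -0.131 to 0.067 for other numbers). The values for numbers 1 and 4, 0.123 and 0.085, were above those of all other-number pairs. No pairing was used in the main fit, and a replicate block was run as an alternative. Alternatives were deposited values, median centring, pseudocounts of 1 and 64, no trend, a present filter, the mean of all probe sets, a replicate block and leaving out each array. Figures were drawn with matplotlib 3.10.9.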

Additional observations from a re-analysis of the deposited data

Results flagged for a closer look

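In 5 of the 120 groups of 4 arrays examined, 1 array lay far from the other 3 (by the gap to the nearest array relative to the range of normalized log2 values); chance alone gives about 1 in 20. The dim Acta2 probe set had a signal of 12.6 on GFP replicate 1, against 2.9, 2.0 and 2.5 on the other GFP arrays. Myh11 had 28.6 on GFP replicate 2, against 39.6, 40.1 and 41.6. Actn2, a sarcomere protein, had 5.5 on sXBP1 replicate 2, against 12.2, 12.1 and 13.5. Actb had 13655.9 on sXBP1 replicate 2, against 13957.3, 13987.1 and 14060.5. Id4 had 469.9 on GFP replicate 1, against 756.9, 670.2 and 736.9. The cause was not tested in any of these.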

How the results depend on the processing

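Acta2, Myl9, Tpm1, Mcam and Mb stayed past the threshold under all 16 alternatives (5 to 6 genes leaving out 1 array, 6 without sXBP1 replicate 1, when Des was added), and 1 gene, Tpm2, passed as higher after median centring. The median difference of the 10 genes, -0.37, was -0.45 with deposited values, -0.31 after median centring, -0.79 with the present filter, which leaves out Tagln and Cnn1, -0.28 with the mean of all probe sets and -0.42 to -0.34 leaving out 1 array. Median centring moved the median difference of all probe sets to 0.07 and deposited values to -0.07, from -0.02. All probe sets called higher numbered 2601, but 1600 with deposited values. Contractile genes called lower numbered 6 with deposited values and with no trend, 5 after median centring and 6 to 9 leaving out 1 array; those called higher numbered 1 with deposited values and 6 after median centring. Heme genes called lower numbered 3 after median centring, 2 with no trend and 3 to 5 leaving out 1 array. The cause was not tested, except that the present filter and the mean of probe sets change which values enter. With the replicate block, 5 of the 10 genes were lower, and 2656 probe sets were lower and 2427 higher; the numbers were not shown to pair samples. Log2 differences of Myl9, Mcam and Mb shrink as the pseudocount grows, to -0.89, -1.16 and -1.34 at 64.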
